A study of Mus musculus with 24 samples.

Results

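Glutathione S-transferases are the enzymes that attach glutathione to reactive, electrophilic compounds, and 10 of their genes were followed by symbol through a table of mouse gene counts: Gstm1, Gstm2 and Gstm5 of the mu class, Gstt1 and Gstt3 of the theta class, Gsta4 of the alpha class, Gsto1 of the omega class, Gstk1 of the kappa class and the membrane enzymes Mgst1 and Mgst3. Each of the 10 symbols had its own entry among the 19895 entries of the table. All 10 were among the 11438 genes tested, which are those with a count above 0 in every library.

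The libraries came from mouse pancreatic organoids, which are duct-derived epithelial cultures grown in a gel. N organoids are normal cultures from C57Bl/6J mice, and KP organoids come from pancreatic ductal adenocarcinoma of mice carrying Pdx1-Cre and Trp53 +/LSL-R172H among their alleles, in which the Pdx1 promoter drives recombination in pancreatic epithelium. Both were treated for 1 h with vehicle (DMSO, labelled Control) or with 10 nM CR-31 (labelled CR1-31-b), a rocaglate that inhibits the RNA helicase eIF4A, and all cultures were kept without EGF and N-acetylcysteine for these experiments. With 3 replicates in all 4 groups there were 12 lysates. A lysate was split into a library of polysome-associated mRNA (bound by at least 3 ribosomes) and a library of total mRNA, which makes 24 libraries. Whether the replicates were separate cultures or animals is not given in the sources used here, so p-values measure the spread between these samples only. The ages of the animals and the number of organoid lines are likewise not given there.

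Cells use these enzymes as the conjugation step of detoxification: an electrophile, often a product of lipid peroxidation or of a drug, is joined to glutathione and the conjugate is pumped out and trimmed to a mercapturic acid. Many of the genes are known targets of the transcription factor NRF2, which binds antioxidant response elements with a small Maf partner and is a known regulator of redox balance in pancreatic ductal tumours. Mu and theta genes lie in tandem clusters, and several of their copies are alike in sequence.

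Reads counted per library ranged from 47308461 to 267463046, and replicates of every group differed far beyond counting noise. No sequencing lane held both organoid types, so lane and organoid type cannot be told apart. Of the epithelial duct markers, 9 of 9 were measured in every library, with Krt19 at 586 to 1680 RPKM. Their sum was 4990 to 8170 RPKM in total mRNA of N and 3780 to 6150 RPKM in KP vehicle organoids. In polysome-associated mRNA Sox9, Epcam and Krt18 of this list were lower in KP and Krt7 was higher, and the part of this difference in the results below was not tested. Summed markers of other cells stayed at or under 4.70 RPKM for acinar, 0.143 for endocrine, 0.146 for fibroblast and 0.0745 for endothelial lists, with Cpa1, Ins1, Ins2, Gcg, Col3a1 and Lum at 0 in all libraries. The haematopoietic list summed to 1.46 to 25 RPKM, nearly all of it Cd68 and Lyz2. Its highest sum was in a KP library: in polysome-associated mRNA it was 2.17 to 25 RPKM in KP vehicle and 3.58 to 14.2 in N vehicle. In total mRNA it was 1.62 to 2.87 RPKM in KP vehicle and 4.13 to 11.5 in N vehicle. Col1a1 and Cd68, the only genes of the fibroblast and haematopoietic lists that were tested, were lower in KP vehicle organoids (polysome-associated log2 −2.71 and −1.19), and their part in the results was not tested. The third N vehicle lysate stood apart for these genes, as its values below show.

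Because the authors discarded reads that mapped to several places, the sequence likeness of the mu genes bears on their counts. The coding sequences of Gstm1 and Gstm2, 657 bases each, are 86.0% identical, and their longest shared run is 60 bases, shorter than the 100-base reads. The stretch around that run is shown because it holds the longest run shared by Gstm1 and Gstm2, with Gstm5 aligned to it. It spans exons 4 and 5 (coding bases 181 to 264 of Gstm1 and Gstm2, 190 to 273 of Gstm5) in GENCODE M21 transcripts on GRCm38, at chr3:108016424-108016597 (minus strand), chr3:107985145-107985325 (minus strand) and chr3:107897291-107897466 (plus strand) with the intron spliced out. Capitals mark bases that differ from Gstm1, 5 in Gstm2 and 23 in Gstm5.
Gstm1: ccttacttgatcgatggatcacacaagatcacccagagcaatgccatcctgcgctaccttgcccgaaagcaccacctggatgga
Gstm2: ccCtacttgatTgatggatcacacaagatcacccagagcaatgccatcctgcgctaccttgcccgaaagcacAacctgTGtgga
Gstm5: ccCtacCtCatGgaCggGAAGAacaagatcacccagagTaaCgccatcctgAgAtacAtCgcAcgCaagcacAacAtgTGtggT

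Over whole transcripts, 92 of 1190 windows of 100 bases of Gstm1 (7.73%) were also found in transcripts from other places, namely the pseudogenes Gstm2-ps1 and Gm8834 and the neighbouring gene Gstm3. Of Gstm2, 6 of 965 windows (0.622%) matched the pseudogene Gm12499. The other 8 members had 0 such windows among annotated transcripts, so Gstm1 is the member most open to a loss of reads. Gstt3 shared 426 of 1781 windows (23.9%) with Gm20441, a gene model that overlaps it on the same strand, and Gstm5 shared 79 of 846 (9.34%) with the overlapping antisense gene 4933431E20Rik. Whether the counting used strand is not given in the sources used here, so reads of Gstm5 and of its antisense partner cannot be told apart over that part. Theta members were less alike, with a longest shared coding run of 35 bases between Gstt1 (723 bases) and Gstt3 (726 bases).

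The members lie on 6 chromosomes of GRCm38, by RefSeq. The mu genes are at chr3:107895854-107898685 (Gstm5), chr3:107981702-107986420 (Gstm2) and chr3:108012250-108017973 (Gstm1), and the theta genes at chr10:75774117-75781422 (Gstt3) and chr10:75783813-75798584 (Gstt1). Gsta4 is at chr9:78191966-78209349, Gsto1 at chr19:47854973-47864790, Gstk1 at chr6:42245935-42250441, Mgst1 at chr6:138140527-138156755 and Mgst3 at chr1:167371966-167393841.

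RefSeq promoter windows of GRCm38.p6, from 250 bases before to 50 after the start, were found for 9 of 10 members (12 windows; Gsta4 is named only). The core of the antioxidant response element, searched as TGACNNNGC on both strands, was in 2 of these 12 windows, against 4071 of all 32851 windows (12.4%). The matches are printed because they are the members' only ones, with the core in capitals: in Gstm5 it lies on the gene's strand 42 to 34 bases before the start (shown is chr3:107895792-107895840, plus strand), and in Mgst1 on the opposite strand 56 to 48 bases before the start (chr6:138140451-138140499, plus strand).
Gstm5: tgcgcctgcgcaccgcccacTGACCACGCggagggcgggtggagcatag
Mgst1: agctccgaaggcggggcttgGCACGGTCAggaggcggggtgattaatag

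Neither of these genes was among the members called higher in KP below, and a link between matches and calls was not tested. No match in a window says only that these letters are not within it.

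The levels of the 10 members spanned a wide range, compared here per length as RPKM (reads scaled for gene length and library size). In total mRNA of N vehicle organoids the order was Gsta4 with 755 ± 229 RPKM (SD, n = 3), Gsto1 with 538 ± 157, Mgst1 with 457 ± 97.1, Gstm1 with 186 ± 50.8, Gstm2 with 85.3 ± 51.4, Gstt1 with 82.4 ± 14.2, Gstm5 with 67.6 ± 24.5, Mgst3 with 42.2 ± 14.9, Gstt3 with 34.2 ± 5.38 and Gstk1 with 5.10 ± 2.05. Only the steps from Mgst1 to Gstm1 and from Gstt3 to Gstk1 had replicate ranges that did not overlap. In KP vehicle organoids Gsta4 (1213 ± 149 RPKM) and Gsto1 (722 ± 149) again led, followed by Gstm1 with 405 ± 46.5, Mgst1 with 317 ± 104, Gstm2 with 241 ± 21.8, Gstt1 with 209 ± 38.9, Gstt3 with 112 ± 21.2, Mgst3 with 95.2 ± 13, Gstm5 with 41.2 ± 5.89 and Gstk1 with 5.53 ± 0.993. There the neighbours from Gstm1 through Gstt1, and Gstt3 with Mgst3, overlapped. With CR-31 the first 4 places were the same genes in total mRNA of each organoid type, with Gsta4 at 1032 ± 240 RPKM in N and 1334 ± 152 in KP. Added together, the 10 members took 0.224 to 0.254% of counted reads in total mRNA of N vehicle and 0.329 to 0.382% in KP vehicle organoids.

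**Figure D1:**
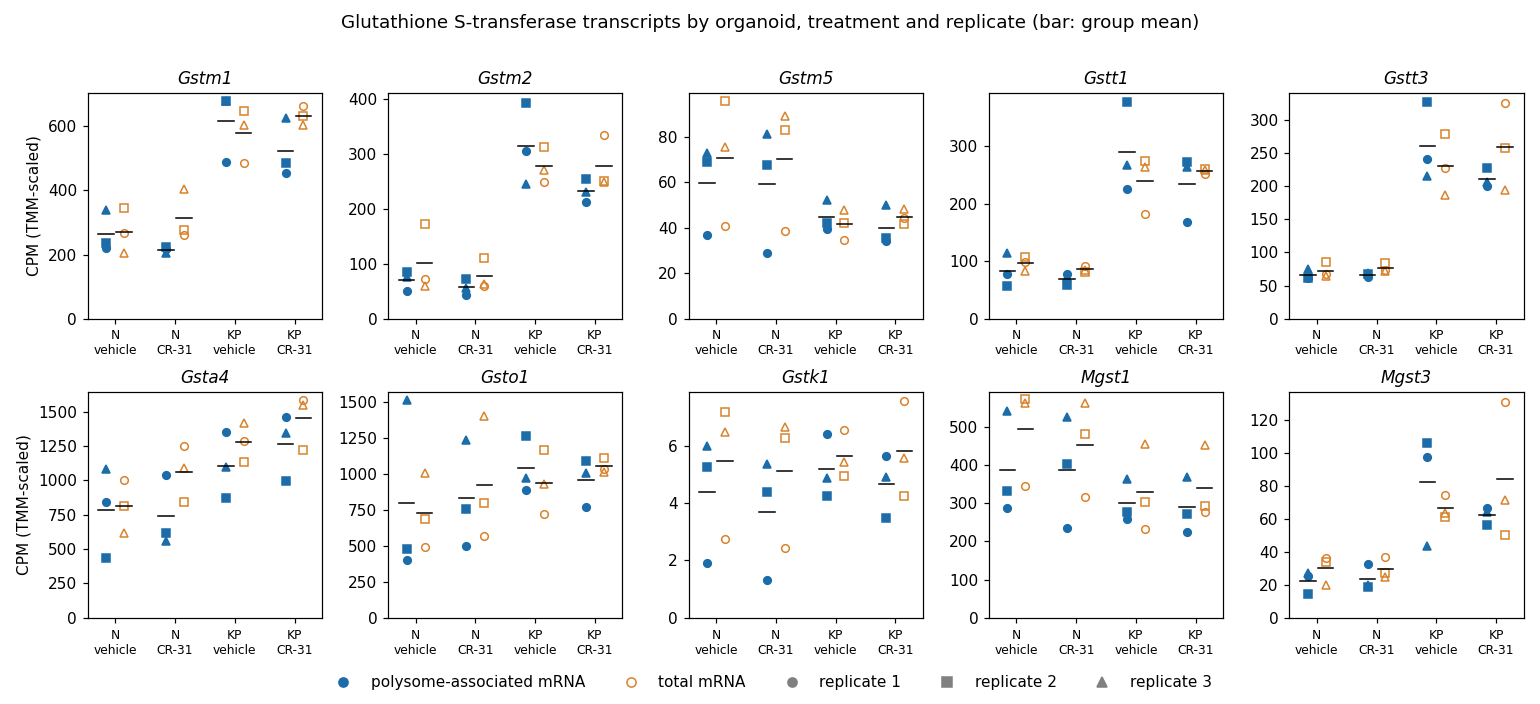
Level of each member in all 24 libraries, as counts scaled to the TMM-adjusted library size (CPM), by organoid type and treatment. Filled blue symbols are polysome-associated mRNA, open orange symbols total mRNA, symbol shapes the replicate and bars the group means. Gstm1, Gstm2, Gstt1, Gstt3 and Mgst3 sit higher in KP than in N in both fractions, whereas Gstk1, Gstm5 and Mgst1 overlap.

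The first comparison set KP against N organoids without drug. In polysome-associated mRNA 5 of 10 members were higher in KP at an adjusted p under 0.25 (edgeR's quasi-likelihood test, Benjamini-Hochberg over 11438 genes, the study's threshold) and 0 were lower, where 43.1% of all genes tested were called, 20.9% as higher and 22.2% as lower. The 5 were Gstm2, Gstt3, Mgst3, Gstt1 and Gstm1, with log2 differences from 1.21 to 2.15. In total mRNA 6 members were higher (the same 5 and Gsta4) and 1, Gstm5, was lower, where 28.5% of all genes were called, 13.1% as higher and 15.4% as lower. Over the 10 members the median log2 difference in polysome-associated mRNA was 0.85, and 0.87 in total mRNA, beside −0.03 over all genes tested in either fraction. A bulk sample cannot tell more cells that express a gene from more RNA per cell.

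In the mu class Gstm1 and Gstm2 were called higher in KP in both fractions and Gstm5 was not, and a difference between members was not tested. Gstm2 had 51.5, 85.9 and 76.1 CPM in polysome-associated mRNA of N vehicle replicates 1, 2 and 3, and 306, 393.9 and 246 CPM in KP vehicle. Every KP library was above every N library, and the fold was 4.43 (log2 difference 2.15, SE 0.27, adjusted p = 0.00147). In total mRNA Gstm2 had 71.9, 173 and 59.2 CPM in N and 249, 314 and 271 in KP. The groups again did not overlap, with N replicate 2 the nearest to KP, and the log2 difference was 1.46 (SE 0.38, adjusted p = 0.0348).

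Gstm1, the mu enzyme of highest level here, had 222, 237 and 337 CPM in polysome-associated mRNA of N and 489.5, 679.6 and 678 CPM in KP, 2.32-fold higher (log2 1.21, SE 0.23, adjusted p = 0.00772). In total mRNA it had 266, 344 and 205 CPM in N and 486.5, 647 and 603 CPM in KP, a log2 difference of 1.09 (SE 0.23, adjusted p = 0.0165). Neither fraction showed overlap. Gstm5 went the other way in its values, with 36.98, 68.7 and 72.8 CPM in polysome-associated mRNA of N and 39.5, 41.9 and 52.2 CPM in KP (log2 −0.42, SE 0.36, adjusted p = 0.446), which overlap. Without N vehicle replicate 1 it was called lower there (−0.67, adjusted p = 0.225). In total mRNA Gstm5 had 40.9, 95.8 and 75.2 CPM in N and 34.4, 41.9 and 47.9 CPM in KP, and was called lower (log2 −0.77, SE 0.34, adjusted p = 0.182) although N replicate 1 lay within the KP range. That call was lost without KP vehicle replicate 1 or 2 or N vehicle replicate 2 or 3, where adjusted p rose to between 0.308 and 0.482.

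Both theta members, whose class is known for acting on small halogenated compounds, were higher in KP. Gstt3 had 61.6, 62.0 and 75.4 CPM in polysome-associated mRNA of N and 240.3, 327 and 216 CPM in KP, 3.94-fold higher (log2 1.98, SE 0.20), with the smallest adjusted p of the members, 0.000513. Its total mRNA levels were 67.6, 84.9 and 64.8 CPM in N and 227, 279 and 187 CPM in KP (log2 1.67, SE 0.23, adjusted p = 0.00237). The N libraries were close together, and every KP library was well above the highest of them. Gstt1 had 77.1, 56.3 and 114 CPM in polysome-associated mRNA of N and 226, 376 and 267 CPM in KP (log2 1.81, SE 0.31, adjusted p = 0.00534). In total mRNA its values were 99.2, 108 and 82.4 CPM in N and 181, 274 and 264 CPM in KP, also without overlap (log2 1.32, SE 0.19, adjusted p = 0.00291).

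The microsomal enzymes belong to a separate family of membrane proteins with both transferase and peroxidase activity. Mgst3 was called higher in KP and Mgst1 was not called, and a difference between them was not tested. Mgst3 had 25.2, 14.3 and 27.2 CPM in polysome-associated mRNA of N and 97.5, 106 and 43.8 CPM in KP (log2 1.89, SE 0.36, adjusted p = 0.00784), with KP replicate 3 the lowest of its group but still above N. In total mRNA Mgst3 had 36.5, 33.9 and 19.6 CPM in N and 74.4, 61.4 and 63.5 CPM in KP (log2 1.15, SE 0.34, adjusted p = 0.0554). Mgst1, at far higher levels, ranged from 287 to 541 CPM in N and from 259 to 363 CPM in KP in polysome-associated mRNA (log2 −0.37, SE 0.33, adjusted p = 0.465). Its total mRNA ranged from 345 to 573 CPM in N and from 233 to 454 CPM in KP (log2 −0.58, SE 0.32, adjusted p = 0.291), so its ranges overlapped in both fractions. In total mRNA it was called lower without KP vehicle replicate 3 (−0.88, adjusted p = 0.159) or N vehicle replicate 1 (−0.78, adjusted p = 0.152).

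Gsta4, an alpha enzyme known for conjugating hydroxynonenal from oxidised lipids, was the most abundant member. It had 839.6, 438 and 1086 CPM in polysome-associated mRNA of N and 1354, 872 and 1097 CPM in KP, which overlap (log2 0.49, SE 0.34, adjusted p = 0.344). In total mRNA the values were 1000.0, 815 and 616 CPM in N and 1286, 1131 and 1417 CPM in KP, every KP library above every N library (log2 0.66, SE 0.22, adjusted p = 0.0851). Without N vehicle replicate 3 the call moved between fractions, with a log2 difference of 0.79 in polysome-associated mRNA (adjusted p = 0.144) and 0.49 in total mRNA (adjusted p = 0.267).

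Gsto1, an omega enzyme with thioltransferase and dehydroascorbate reductase activity, was the member whose N vehicle replicates spread most for their mean in polysome-associated mRNA. It had 404, 481 and 1513 CPM in polysome-associated mRNA of N and 891, 1263 and 970.0 CPM in KP (log2 0.38, SE 0.46, adjusted p = 0.601). N replicate 3 exceeded every KP library while N replicates 1 and 2 were under every KP library, and without N vehicle replicate 3 the log2 difference was 1.23 (adjusted p = 0.0405). In total mRNA Gsto1 had 495, 683 and 1003 CPM in N and 725, 1165 and 930.2 CPM in KP (log2 0.37, SE 0.33, adjusted p = 0.536), again overlapping. With N replicate 3 dropped altogether, vehicle and CR-31, Gsto1 was called higher there (0.67, adjusted p = 0.177), in a setting chosen after the data were seen. Gstk1, found in mitochondria and peroxisomes, was low throughout, from 1.91 to 5.998 CPM in N and 4.24 to 6.41 CPM in KP in polysome-associated mRNA. Its log2 difference was 0.24 there (SE 0.52, adjusted p = 0.789) and 0.05 in total mRNA (SE 0.44, adjusted p = 0.965).

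**Figure D2:**
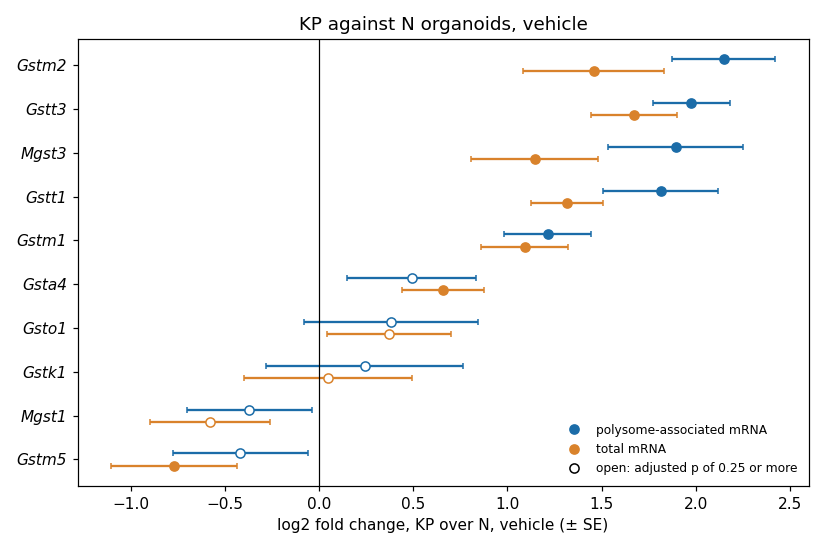
Log2 difference between KP and N vehicle organoids for each member, in polysome-associated (blue) and total mRNA (orange), from edgeR's quasi-likelihood fit. Bars are 1 SE and open points have an adjusted p of 0.25 or more. Gstm2, Gstt3, Mgst3, Gstt1 and Gstm1 lie at 1.09 or more in both fractions, and Gstm5 lies below 0 in both.

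The replicate ranges of KP and N did not overlap for 5 of 10 members in polysome-associated mRNA, where this held for 33.8% of all genes tested, and for 6 of 10 in total mRNA, where it held for 32.4%. In each case the KP values were above. Gstm1, Gstm2, Gstt1, Gstt3 and Mgst3 kept their call in polysome-associated mRNA under 26 of 26 other settings, a stricter threshold of 0.05 among them. In total mRNA the first 4 did so too, and Mgst3 kept it under 25 of 26, missing the threshold of 0.05 with its adjusted p of 0.0554.

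With CR-31 in both organoid types, measured in separate libraries, 6 of 10 members were higher in KP in polysome-associated mRNA, where 25% of all genes were called and 11.2% as higher. Gstm2 differed by 2.02 on the log2 scale (SE 0.27, adjusted p = 0.00364), Gstt1 by 1.75 (SE 0.31), Gstt3 by 1.66 (SE 0.20), Mgst3 by 1.40 (SE 0.35), Gstm1 by 1.28 (SE 0.23) and Gsta4 by 0.77 (SE 0.34, adjusted p = 0.203). The first 5 are those called with vehicle. In total mRNA 6 members were higher and Gstm5 was lower (log2 −0.65, SE 0.33, adjusted p = 0.213), where 39.9% of all genes were called and 18.9% as higher. The Gsta4 call did not hold without KP CR-31 replicate 1 or 3 or N CR-31 replicate 2 or 3 in either fraction, with adjusted p between 0.285 and 0.496. The Gstm5 call in total mRNA did not hold without KP CR-31 replicate 1, 2 or 3 or N CR-31 replicate 2 or 3, with adjusted p between 0.26 and 0.476. Other calls appeared when a CR-31 lysate was left out. Without N CR-31 replicate 1, Gstm5 (−0.90, adjusted p = 0.0996) and Mgst1 (−0.68, adjusted p = 0.212) were lower in polysome-associated mRNA. In total mRNA Mgst1 was lower without N CR-31 replicate 1 (−0.61, adjusted p = 0.223) or KP CR-31 replicate 3 (−0.66, adjusted p = 0.228), and Gsto1 was higher without N CR-31 replicate 3 (0.62, adjusted p = 0.241).

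The neighbours of the members were compared next, from a list of 17 other genes of the family. Of these, 13 were tested. Gsta5 and Gstp3 had no entry, Gstz1 shared an entry with Pomt2, and Gstt4 failed the filter. In polysome-associated mRNA 8 of the 13 were higher in KP and 1, Mgst2, was lower, where 20.9% and 22.2% of all genes were, with a median log2 difference of 0.75. In total mRNA 9 were higher and Mgst2 was lower, where 13.1% and 15.4% of all genes were, with a median of 1.15.

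Gstt2, which lies beyond Gstt4 in the theta cluster, had the largest difference of any gene of the family tested. Its levels were 7.56, 8.79 and 29.9 CPM in polysome-associated mRNA of N and 365, 301 and 129 CPM in KP (log2 4.10, SE 0.59, adjusted p = 0.00303), and 3.92 was the log2 difference in total mRNA (SE 0.53, adjusted p = 0.00228). In both groups replicate 3 was nearest to the other group, without overlap. Along the mu cluster the polysome-associated log2 differences ran −0.42 for Gstm5, 0.50 for Gstm7 (adjusted p = 0.468), 0.04 for Gstm6 (adjusted p = 0.98), 1.60 for Gstm3 (SE 0.20, adjusted p = 0.00141), 2.15 for Gstm2, 1.21 for Gstm1 and 0.63 for Gstm4 (SE 0.33, adjusted p = 0.207). The genes called in polysome-associated mRNA were the 4 at the Gstm3 to Gstm4 end, while in total mRNA Gstm6 was called (log2 1.43, adjusted p = 0.214) and Gstm4 was not. In the alpha cluster Gsta1 was higher by 2.27 (SE 0.67, adjusted p = 0.042) and Gsta2 by 1.59 (SE 0.82, adjusted p = 0.199), beside 0.49 for Gsta4.

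The pi enzymes Gstp1 and Gstp2 were higher by 1.64 (SE 0.42, adjusted p = 0.0257) and 1.67 (SE 0.43, adjusted p = 0.0246). They are near-identical copies, so the split of reads between them is uncertain. Gstcd, a protein with a transferase-like domain, was higher by 0.75 (SE 0.29, adjusted p = 0.0951). In total mRNA the alpha gene Gsta3 was higher by 0.55 (SE 0.21, adjusted p = 0.127). In polysome-associated mRNA the microsomal Mgst2 was lower (log2 −1.13, SE 0.57, adjusted p = 0.188).

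**Figure D3:**
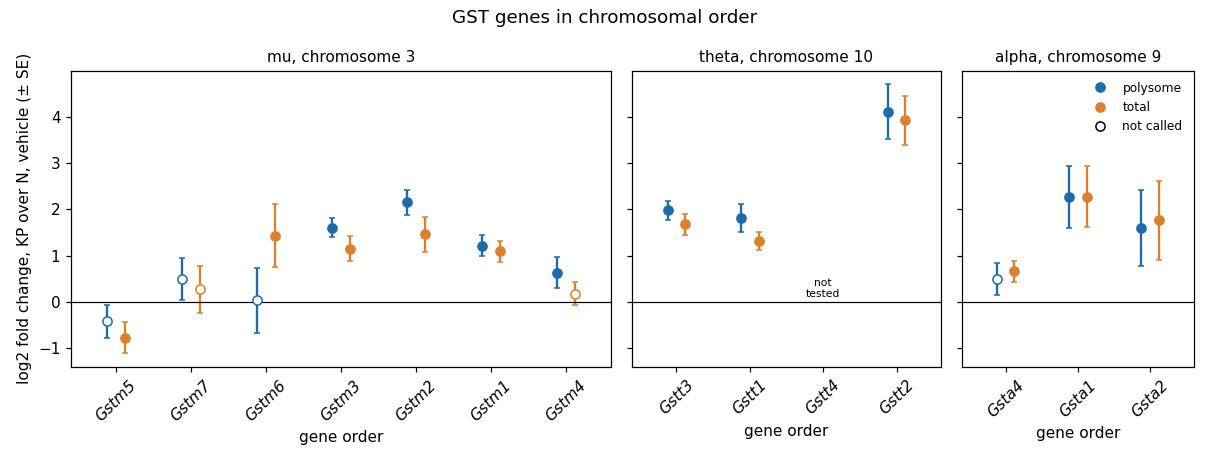
Log2 difference between KP and N vehicle organoids for genes of the mu, theta and alpha clusters in chromosomal order, with polysome-associated mRNA in blue, total mRNA in orange and bars of 1 SE. Open points were not called. Polysome-associated values run from −0.42 at Gstm5 to 2.15 at Gstm2 within the mu cluster, and Gstt2 reaches 4.10 in the theta cluster.

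Other genes of glutathione metabolism moved in both directions, and the counts below stand beside the 43.1% of all genes called in polysome-associated mRNA and the 28.5% called in total mRNA. Of 17 genes of glutathione synthesis and recycling tested, 6 were higher and 1 lower in polysome-associated mRNA of KP, with a median log2 difference of 0.35. Glrx5, a mitochondrial glutaredoxin for iron-sulphur clusters, was higher by 1.06 (SE 0.26, adjusted p = 0.0217) and Pgd, which makes NADPH in the pentose phosphate pathway, by 0.97 (SE 0.29, adjusted p = 0.0401), while the cytosolic glutaredoxin Glrx was lower (log2 −1.04, SE 0.42, adjusted p = 0.107). In total mRNA 7 were higher and 2 lower, with a median of 0.29.

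Of 6 glutathione peroxidases, Gpx4, which reduces lipid peroxides in membranes, was higher (log2 0.87, SE 0.33, adjusted p = 0.0917), and Gpx8 and Gpx3 were lower (−2.58 with SE 0.80 and −1.33 with SE 0.75), with a median of −0.26. Total mRNA gave 0 higher and 3 lower peroxidases and a median of −0.80. Of 10 genes for export and trimming of conjugates, 1, Ggt6, was higher (log2 1.11, SE 0.38, adjusted p = 0.0661) and 0 were lower in polysome-associated mRNA. In total mRNA 2 of these were higher. Among 11 NRF2 regulators and targets outside the family, 4 were higher and 1 lower in polysome-associated mRNA, with a median of 0.43. Nqo1, a quinone reductase, was higher by 1.63 (SE 0.92, adjusted p = 0.244) and Cbr3, a carbonyl reductase, by 1.30 (SE 0.69, adjusted p = 0.216), and Bach1, a repressor of NRF2 targets, was lower (log2 −0.81, SE 0.31, adjusted p = 0.0923). Keap1, the adaptor that targets NRF2 for degradation, was also called higher (log2 0.46, SE 0.17, adjusted p = 0.0861), and is named outside the rule after its values were seen. In total mRNA 2 of the 11 were higher and 1 lower.

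Gstt3, as the member with the smallest adjusted p, was used to ask which genes had the most similar pattern over the 24 libraries. By Pearson's r of log2 CPM these were Cyp2d26 (r = 0.97), Ebp (0.97), Gstt2 (0.97), Pllp (0.96) and Pidd1 (0.96). The libraries share 2 organoid types and 12 lysates, so this is a description only.

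Translational efficiency, the difference in polysome-associated mRNA beyond that in total mRNA of the same lysates, addressed whether the members were loaded on polysomes more in KP. The interaction model called 0 of 10 members and 0% of all genes for KP against N with vehicle. At an unadjusted p under 0.05 the same edgeR test had 0 members and 1296 genes, and a limma regression on total mRNA called 4 members and 10.5% of all genes at the 0.25 threshold. By the interaction 9 of 10 members had a value above 0, with a median of 0.24 beside 0.00 over all genes. The values were 0.62 for Mgst3 (SE 0.42, adjusted p = 0.541), 0.50 for Gstt1 (SE 0.30, adjusted p = 0.498), 0.50 for Gstm2 (SE 0.31, adjusted p = 0.506), 0.29 for Gstm5, 0.25 for Gstt3, 0.22 for Mgst1, 0.19 for Gsto1, 0.18 for Gstk1, 0.07 for Gstm1 and −0.15 for Gsta4. The regression gave larger values for the 4 members it called, which were Mgst3 (1.63, adjusted p = 0.222), Gstm2 (1.53, adjusted p = 0.174), Gstt3 (1.5, adjusted p = 0.245) and Gstm1 (1.47, adjusted p = 0.192). No limit was set on the slope of this regression, and the Gstm1 value exceeds its whole polysome-associated difference of 1.21, so it is not a difference beyond total mRNA in the sense above. With the replicate block the regression also called Gstt1, Gsto1 and Gsta4 (1.88, adjusted p = 0.0338) and no longer called Gstt3. The values with the block are given at the end and have the same limit.

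These values turned on the third N vehicle lysate. There the log2 ratio of polysome-associated to total CPM had a median over the 10 members of 0.36, whereas it was −0.34 and −0.69 in N vehicle replicates 1 and 2. For 10 of 10 members the third N vehicle lysate had the highest ratio of its group, which held for 44.3% of all genes. The spread was wide for Gsta4, with log2 ratios of −0.32, −0.93 and 0.77 in replicates 1, 2 and 3, and Mgst3 gave −0.60, −1.28 and 0.42. The KP vehicle lysates lay in between, with member medians of 0.07, 0.00 and −0.15. All 3 N CR-31 lysates were negative, at −0.33, −0.45 and −0.27 in replicates 1, 2 and 3. The third of these was low for Gsta4 (−1.03, beside −0.32 and −0.52) and Gstm1 (−1.04, beside −0.33 and −0.38). Yet it had the highest ratio of its group for 6 of 10 members, which held for 44.7% of all genes.

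Without N vehicle replicate 3, 4 members passed in translational efficiency, where 18.8% of all genes did. These were Gstm2 (0.84, adjusted p = 0.155), Gstt1 (0.84, adjusted p = 0.149), Mgst3 (1.04, adjusted p = 0.19) and Gsto1 (0.49, adjusted p = 0.215). When N replicate 3 was dropped altogether, vehicle and CR-31, a setting chosen after the data were seen, 8 members passed, all but Gsta4 and Gstk1, where 35.8% of all genes did. By the interaction test, members were thus called in the settings without the third N vehicle lysate and in no other setting that left out a lysate.

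**Figure D4:**
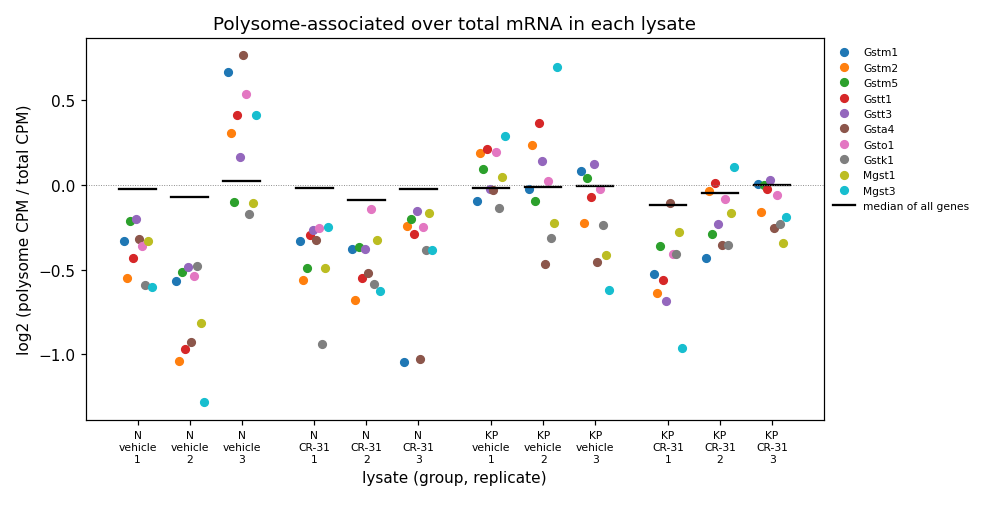
Log2 ratio of polysome-associated to total CPM for each member (coloured points) in each of the 12 lysates, with the median of all genes tested as a black bar. In the third N vehicle lysate 7 of 10 members are above 0, and in the other 5 N lysates 0 of 10 are.

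The effect of CR-31 was asked in each organoid type. In KP organoids 0 of 10 members were called in polysome-associated mRNA, where 0% of all genes were. At an unadjusted p under 0.05 edgeR had 0 members and 406 genes, and DESeq2 and limma on RPKM each called 0 members. Of the 10 values 9 were below 0, with a median of −0.20 beside −0.02 over all genes. The highest and lowest were 0.19 for Gsta4 (SE 0.34) and −0.44 for Gstm2 (SE 0.26, adjusted p = 1).

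The Gstm2 values were 306, 393.9 and 246 CPM in KP vehicle replicates 1, 2 and 3 and 214, 254 and 230.2 CPM with CR-31, so each CR-31 library was under its numbered partner, by −0.52, −0.63 and −0.10 on the log2 scale. The CR-31 and vehicle ranges overlapped slightly. Vehicle and CR-31 shared a lane in replicates 1 and 3 and not in replicate 2, so the within-lane changes are −0.52 and −0.10. When same-numbered libraries of an organoid type were blocked together, Gstm2 was called lower (log2 −0.42, SE 0.16, adjusted p = 0.211), the only member, where 19.3% of all genes were called.

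Gstm1, Gstm5, Gstt1 and Gstt3 were also under their partner in 3 of 3 KP replicates. Together with Gstm2 these are 5 of 10 members, where 30.6% of all genes were lower in all 3. Gstt3 changed by −0.26, −0.52 and −0.07, and Gstt1 by −0.42, −0.47 and −0.02. For both, as for Gstm2, replicate 3 moved least. Gsta4 alone was above its partner in all 3, by 0.11, 0.19 and 0.29, which 28.9% of all genes were. Mgst3 differed in sign between replicates, at −0.55, −0.91 and 0.55. With this block and N replicate 3 dropped altogether, a setting chosen after the data were seen, 6 members were called lower and Gsta4 higher in KP, where 54.9% of all genes were called.

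In total mRNA of KP organoids CR-31 gave values above 0 for 10 of 10 members, with a median of 0.12 beside 0.02, and 0 were called, as were 0% of all genes. By edgeR 0 members and 109 genes had an unadjusted p under 0.05, and DESeq2 called 0 members and 8 genes, limma 0. The largest was 0.34 for Mgst3 (SE 0.33, adjusted p = 1). Replicate 1 stood apart, with 10 of 10 members above their partner by 0.21 to 0.82, whereas in replicate 2 Gsta4 alone was above it. Over all 3 replicates 1 of 10 members, Gsta4, was above its partner each time, where 15.6% of all genes were. In translational efficiency 9 of 10 members had a value below 0 (median −0.28 beside 0.04). The member medians of the polysome to total log2 ratio in the KP CR-31 lysates were −0.47, −0.20 and −0.11, against 0.07, 0.00 and −0.15 with vehicle, so the ratio was lower with CR-31 in replicates 1 and 2 and not in replicate 3. Here too 0 members and 0% of genes were called, with 0 members and 627 genes at an unadjusted p under 0.05 by edgeR. The regression on total mRNA with the replicate block called 2 members, Gsta4 higher (0.52, adjusted p = 0.231) and Gstm2 lower (−0.39, adjusted p = 0.246), where 16.7% of all genes were called.

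In N organoids 0 members were called with CR-31 in polysome-associated mRNA, total mRNA or translational efficiency, and 0% of all genes in each. By edgeR 0 members had an unadjusted p under 0.05, beside 48, 297 and 328 genes, and DESeq2 and limma called 0 members in the fractions. The medians were −0.05, −0.01 and −0.08. In polysome-associated mRNA 3 of 10 members, Gstm1, Gstm2 and Gstk1, were under their partner in all 3 replicates, where 11.4% of all genes were. Gstm2 had 42.8, 72.7 and 56.5 CPM with CR-31 against 51.5, 85.9 and 76.1 with vehicle (log2 −0.31, SE 0.26, adjusted p = 1), which overlap. Gsta4 and Gsto1 went in opposite directions between replicates, with 0.31, 0.49 and −0.95 for Gsta4 and 0.31, 0.66 and −0.29 for Gsto1. In both the third replicate, whose vehicle lysate stood apart, was the one below 0. With the replicate block and N replicate 3 dropped, Gsto1 (0.49, adjusted p = 0.0897) and Gsta4 (0.41, adjusted p = 0.126) were called higher with CR-31 in N, where 15% of all genes were called.

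The difference in the CR-31 effect between KP and N was tested directly in polysome-associated mRNA, where 0 of 10 members and 0% of all genes were called. By edgeR 0 members and 258 genes had an unadjusted p under 0.05, and DESeq2 and limma called 0 members. The values furthest from 0 were −0.49 for Mgst3 (SE 0.49) and −0.31 for Gstt3 (SE 0.28), both with an adjusted p of 0.999. Gstm2 differed by −0.13 (SE 0.37). No member was called with the replicate block either. With the block and N replicate 3 dropped, 3 members had a lower CR-31 effect in KP than in N, where 27% of all genes were called. These were Gsto1 (−0.61, adjusted p = 0.0982), Gstt3 (−0.39, adjusted p = 0.207) and Mgst3 (−0.70, adjusted p = 0.184).

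**Figure D5:**
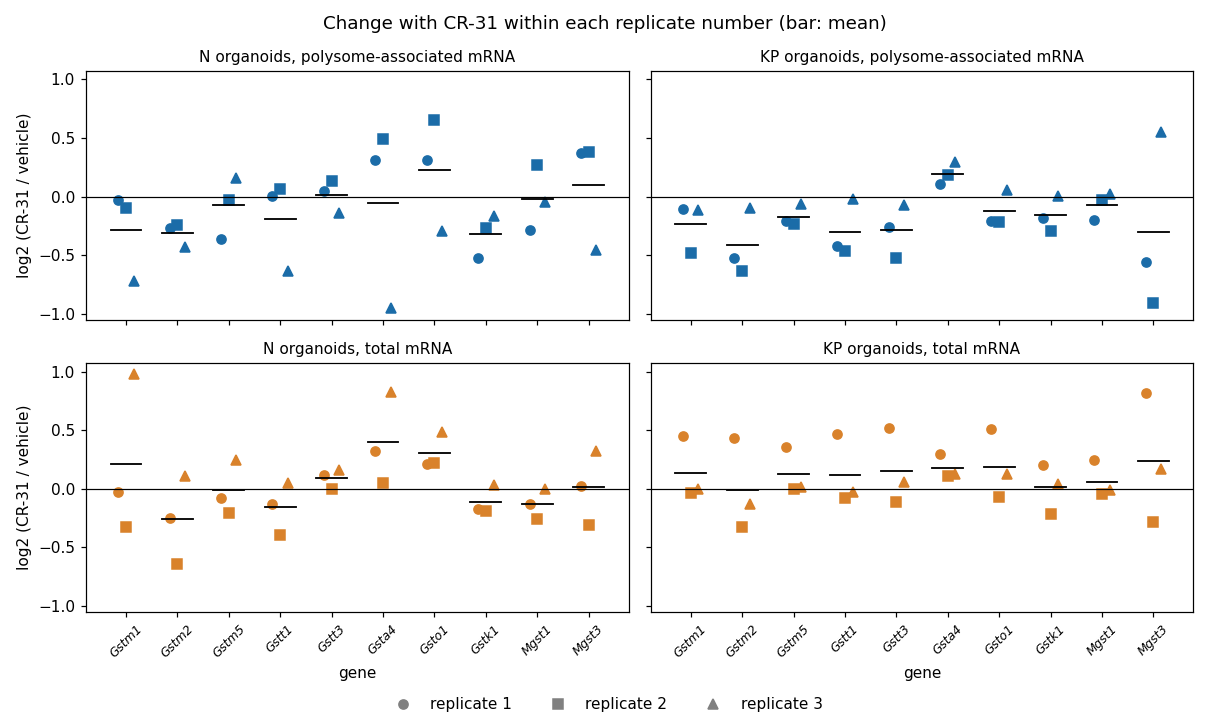
Log2 ratio of CR-31 to vehicle CPM within each replicate number for the 10 members, in N (left) and KP organoids (right), for polysome-associated (top) and total mRNA (bottom), with the mean as a bar. In KP polysome-associated mRNA the mean is below 0 for 9 of 10 members and only Gsta4 is above 0 in all 3 replicates.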

How the data were processed

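Polysome-associated and total mRNA of 12 organoid lysates were sequenced by the authors, per the methods as pairs of 100-base reads, aligned with HISAT2 at default settings, and reads with several matches were discarded. The submitters' processing notes name HISAT2, SAMtools, hg38 and GRCh38, whereas the deposited genes are mouse RefSeq genes. The counts per gene and library were deposited by the authors without normalization, with replicates kept apart. RPKM values, deposited by the authors beside the counts, were used for levels between genes and in 1 alternative. Groups, replicates and lanes come from the sample labels, and 0 columns were left without a sample.

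Of 19895 entries, 1042 list several symbols and 134 share a symbol, and both kinds were left out. The 11438 other entries with a count above 0 in all 24 libraries were tested in R 4.3.3 with edgeR 4.0.16 (TMM within each fraction, quasi-likelihood test, 4 group means). CPM values use the TMM-scaled library size. Translational efficiency was the interaction of fraction and group in 1 model of 24 libraries, blocked on lysate. Adjusted p-values are Benjamini-Hochberg over all tested genes, with a threshold of 0.25 as in the study. The study's own tool, Anota2seq, and its limits on regression slopes were not used here. Scripts were tested on simulated data. Alternatives used DESeq2 1.42.0, limma 3.58.1 on log2(RPKM + 0.1), other normalizations and filters, and each lysate left out.

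Same-numbered vehicle and CR-31 libraries deviated together from their group means across genes in 6 of 6 pairs in N (r from 0.55 to 0.89) and in KP (r from 0.45 to 0.80). So the numbers of the labels pair them, and the value with the block alone is given where it changes a call of the main tests. N and KP of the same number did so in 2 of 6 pairs with vehicle and 2 of 6 with CR-31 (r from −0.17 to 0.28), so they are not paired.

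The 10 members and all gene lists were chosen with earlier results of these data known. Named genes were all members, other family genes called in KP against N with vehicle (Gstm7 was added for the gene order), the 2 highest and 2 lowest called genes of each other list in polysome-associated mRNA, and the 5 genes most like the member with the smallest adjusted p. Sequences and positions are from RefSeq and GENCODE M21 on GRCm38. An allele of the KP mice and the values of a duct marker are not reported here.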

Additional observations from a re-analysis of the deposited data

How the results depend on the processing

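For KP against N, the 5 members called in polysome-associated mRNA with vehicle kept their direction and call under the alternatives run. At an adjusted p under 0.05 the total mRNA count with vehicle fell from 7 to 4 members, while that over all 11438 genes fell from 3258 to 1028. For CR-31 the replicate block, which pairs vehicle and CR-31 within an organoid type, called 1 member in KP polysome-associated mRNA (19.3% of all genes). Alone it called no member there in N or in the difference between the types. With N replicate 3 also left out, a change of both settings at once, 7 were called in KP (54.9%), 2 in N (15%) and 3 in the difference (27%). Under that last setting Gsta4 changed sign with CR-31 in N polysome-associated mRNA, to 0.41. In translational efficiency of KP against N the regression on total mRNA called 4 members (10.5% of all genes) and 6 with the block (54.1%), where Gsta4 changed sign, to 1.88. No limit was set on the slope of the regression, and each of the 6 values exceeds the whole polysome-associated difference of its gene. They were 1.88 for Gsta4 (whole difference 0.49), 3.00 for Gstt1 (1.81) and 2.41 for Gstm2 (2.15). The others were 2.11 for Mgst3 (1.89), 1.68 for Gstm1 (1.21) and 0.97 for Gsto1 (0.38). So these are not differences beyond total mRNA in the sense above. Leaving out lysates gave 0 to 8, the 8 without both lysates of N replicate 3 and 4 without its vehicle lysate. For CR-31 in KP the regression with the block called 2. The cause was not tested, except that fewer lysates remained in each left-out setting. With N and KP numbers as a shared block, which the check did not bear out, KP against N gave 6 higher and 1 lower member in polysome-associated (50% of all genes) and 6 higher and 2 lower in total mRNA (35.5%) with vehicle, and 6 higher and 2 lower in each fraction with CR-31 (33.6% and 45.7%). Calls gained were Gsta4 higher (0.53, adjusted p = 0.163) and Mgst1 lower (−0.33, 0.241) in polysome-associated and Mgst1 lower (−0.60, 0.051) in total mRNA with vehicle, and Gstm5 (−0.48, 0.241) and Mgst1 (−0.39, 0.222) lower in polysome-associated and Mgst1 (−0.40, 0.149) in total mRNA with CR-31. For CR-31 against vehicle the block changed no other call of a member. With 3 lysates a group, the spread between lysates limits precision more than depth does.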

Other observations

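Other genes of the family, outside the 10 members, were read for CR-31 as well, and Gstm3 and Gstm6 are named here after their values were seen. Of the 13 tested, 0 were called with CR-31 in either organoid type by edgeR. At an unadjusted p under 0.05 in polysome-associated mRNA there were 1 in KP and 2 in N, beside 406 and 48 of all 11438 genes. In KP 10 of the 13 had values below 0 there (median −0.31), beside 5997 of all genes (median −0.02). Values above 0 in total mRNA of KP were found for 11 (median 0.15), beside 6110 of all genes (median 0.02). Gstm3, the mu gene next to Gstm2, had log2 changes in polysome-associated mRNA of −0.50 in KP (SE 0.20) and −0.44 in N (SE 0.20), each with an adjusted p of 1, and of −0.79 (SE 0.30, adjusted p = 0.529) and −0.69 (SE 0.30, adjusted p = 0.736) in translational efficiency. Gstm6, at a low level, had 0.641, 0.720 and 0.680 CPM in total mRNA of KP vehicle and 1.36, 2.61 and 7.62 CPM with CR-31 (log2 2.50, SE 0.68, adjusted p = 1). These ranges did not overlap, from 55 to 75 counts per library with vehicle and 131 to 793 with CR-31. The polysome-associated mRNA of Gstm6 did not show this rise, with a log2 change of 0.03 in KP (SE 0.70) and −1.69 in N (SE 0.73). Its translational efficiency in KP changed by −2.08 (SE 0.82, adjusted p = 0.529).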
